A study of Mus musculus with 12 samples.

Results

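The T cell and NK cell genes described here are 10 genes that mark T lymphocytes, natural killer (NK) cells, or both: Cd3d, Cd3e, Cd3g, Cd8a, Cd4, Cd2, Lck, Nkg7, Gzma, and Klrk1. They were chosen by symbol, as textbook markers, with earlier results of these data known. Each symbol matched 1 Ensembl gene among the 40551 genes counted. Of the 10, 9 passed the filter on low counts and entered the tests, and Cd3e did not. They were measured by total RNA-seq of whole mouse livers on the Illumina NovaSeq platform, with 3 livers and 3 libraries for each of 4 genotypes.

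WT livers are the controls. In Mcl1 KO livers a floxed Mcl1 gene, which encodes an antiapoptotic protein, was deleted by Cre recombinase driven by the albumin promoter, that is, in hepatocytes and not in lymphocytes. Sting1 KO mice are Sting1−/−, with the innate DNA sensing adaptor STING absent from every cell, lymphocytes included. Mcl1 Sting1 DKO mice came from a cross of the Mcl1 KO and Sting1−/− lines and carry both. Livers profiled to compare Mcl1 KO with WT were from mice aged 2 months per the paper. An age for the Mcl1 Sting1 DKO and Sting1 KO libraries, the sex of each donor (mice of both sexes were used), and whether WT and Sting1 KO mice carried floxed Mcl1 or Cre were not given in the sources used here. The study asked how micronuclei and extrachromosomal circular DNA bear on inflammation and cancer of the liver. Its cross to Sting1−/− mice asked whether a block of STING signaling alters the phenotype of Mcl1 KO mice.

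T cells recognize antigen through the T cell receptor, whose antigen-binding chains signal through the CD3 chains. The coreceptors CD4 and CD8 bind class II and class I histocompatibility molecules, and the kinase LCK, held by these coreceptors, phosphorylates the CD3 chains. NK cells carry no such receptor, sense stressed cells through receptors such as NKG2D, and kill with the same granule proteases as cytotoxic T cells. Liver sinusoids hold resident NK cells and T cells beside an excess of hepatocytes.

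Each library held 28826367 to 45266387 counts. Mcl1, at 90.2 to 104 CPM (counts scaled to the library total with TMM factors) in WT and 77.0 to 90.1 CPM in Sting1 KO, stood at 24.98 to 33.96 CPM in Mcl1 KO and at 18.1 to 26.0 CPM in Mcl1 Sting1 DKO. Sting1 ranged from 2.11 to 2.53 CPM in WT and from 1.16 to 2.70 CPM in Sting1 KO. Which exons the Sting1 allele lacks was not given in the sources used here, so its gene total does not check that label. WT 2, WT 3, and Mcl1 Sting1 DKO 1 held Y-linked reads, at 142 to 147 CPM, and the other 9 libraries at most 6 counts. By these reads the 3 livers were male and the other 9 female. No Mcl1 KO or Sting1 KO liver was among the 3. In comparisons of either genotype with WT, sex and genotype therefore cannot be fully told apart. Small structured RNAs took 0.172% to 0.369% of the counts in WT, 0.283%, 2.37%, and 1.36% in Mcl1 KO, 0.431% to 0.532% in Mcl1 Sting1 DKO, and 0.506% to 0.897% in Sting1 KO. The pan-leukocyte gene Ptprc had 551 to 655 counts in the WT livers and Alb had 2017607 to 4438234, so the T cell and NK cell genes were read against a large excess of hepatocyte RNA.

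The 3 CD3 chain genes sit together on chromosome 9 (GRCm39). Cd3g (ENSMUSG00000002033) covers 44880870 to 44891735 on the minus strand, Cd3d (ENSMUSG00000032094) covers 44893083 to 44899173 on the plus strand, and Cd3e (ENSMUSG00000032093) covers 44910037 to 44920925 on the minus strand. Cd8a (ENSMUSG00000053977, 71350411 to 71356157, plus strand), Cd4 (ENSMUSG00000023274, 124841655 to 124874758, minus strand), and Klrk1 (ENSMUSG00000030149, 129587286 to 129600827, minus strand) lie on chromosome 6. Cd2 (ENSMUSG00000027863) lies on chromosome 3 from 101183215 to 101195458, Lck (ENSMUSG00000000409) on chromosome 4 from 129442137 to 129467434, and Gzma (ENSMUSG00000023132) on chromosome 13 from 113230355 to 113237524, all on the minus strand. Nkg7 (ENSMUSG00000004612) lies on chromosome 7 from 43086497 to 43087678 on the plus strand. Exons of 8 of the 10 genes overlapped no exon of another annotated gene. Cd3e shares 135 exonic bases with an antisense noncoding RNA gene that had 0 counts, and Lck shares 25 with a microRNA gene that had 27 counts over all libraries.

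RefSeq promoters (GRCm38.p6, 250 bases before to 50 after a start) were matched by symbol for 8 of the 10 genes and gave 9 sequences, with 2 for Lck. Printed here are those of Cd3d, Cd8a, and Lck, the 3 genes that rose with Mcl1 deletion, and that of Cd3g, the divergent neighbor of Cd3d that was not called. Letters in capitals are matches, on either strand, to short core motifs of factor families used by lymphocytes: GGAAGT of ETS factors, TGTGGT of RUNX factors, AGATAA bound by the GATA family, CTTTGA of TCF/LEF factors, and the E-box forms CAGGTG and CAGCTG.
Cd3d, chr9:44981536-44981835, plus strand: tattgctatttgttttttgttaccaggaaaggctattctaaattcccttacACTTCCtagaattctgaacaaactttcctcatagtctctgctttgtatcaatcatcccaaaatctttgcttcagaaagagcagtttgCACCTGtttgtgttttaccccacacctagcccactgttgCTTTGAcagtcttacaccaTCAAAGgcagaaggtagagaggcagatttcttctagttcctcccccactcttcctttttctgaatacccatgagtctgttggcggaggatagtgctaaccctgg
Cd3g, chr9:44980382-44980681, minus strand: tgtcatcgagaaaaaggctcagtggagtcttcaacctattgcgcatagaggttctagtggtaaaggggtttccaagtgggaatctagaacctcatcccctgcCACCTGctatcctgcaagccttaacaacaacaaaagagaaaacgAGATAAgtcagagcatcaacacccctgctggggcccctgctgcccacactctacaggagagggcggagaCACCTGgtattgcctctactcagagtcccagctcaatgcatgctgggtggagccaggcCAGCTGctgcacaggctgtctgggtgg
Cd8a, chr6:71373177-71373476, plus strand: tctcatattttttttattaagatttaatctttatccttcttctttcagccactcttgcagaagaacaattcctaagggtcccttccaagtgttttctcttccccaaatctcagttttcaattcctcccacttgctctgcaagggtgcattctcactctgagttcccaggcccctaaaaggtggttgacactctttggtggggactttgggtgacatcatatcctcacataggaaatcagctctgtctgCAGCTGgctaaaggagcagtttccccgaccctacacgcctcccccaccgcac
Lck, chr4:129558323-129558622, minus strand: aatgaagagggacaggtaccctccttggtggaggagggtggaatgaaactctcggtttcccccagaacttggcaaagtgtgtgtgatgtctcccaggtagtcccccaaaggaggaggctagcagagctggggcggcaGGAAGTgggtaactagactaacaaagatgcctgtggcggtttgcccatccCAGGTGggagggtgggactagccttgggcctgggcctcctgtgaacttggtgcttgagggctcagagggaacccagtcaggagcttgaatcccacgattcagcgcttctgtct
Lck, more upstream start, chr4:129573592-129573891, minus strand: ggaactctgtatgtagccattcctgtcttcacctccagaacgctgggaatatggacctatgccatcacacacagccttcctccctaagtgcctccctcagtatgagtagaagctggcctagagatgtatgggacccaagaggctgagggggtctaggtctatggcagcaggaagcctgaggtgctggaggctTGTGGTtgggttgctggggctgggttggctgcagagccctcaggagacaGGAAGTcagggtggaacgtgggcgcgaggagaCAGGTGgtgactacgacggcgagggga
The Cd3d promoter held 4 matches (ETS, E-box, and a pair of TCF/LEF) and the Cd3g promoter 4 (a pair of CAGGTG E-boxes, GATA, and CAGCTG). The Cd8a promoter held 1, a CAGCTG E-box that also reads the same on the other strand. Both Lck promoters held ETS and CAGGTG matches, and the upstream one a RUNX match as well. Among the 9 promoters, CAGGTG was present in 6, against 20.2% of all 32851 promoters of this length. The ETS motif was present in 4 against 23.8%, the RUNX motif in 4 against 16.8%, CAGCTG in 2 against 16.3%, and the GATA motif in 1 against 11.2%. That of TCF/LEF was present in 2, and in 5257 of the 32851. These are matches of letters in a short window, not sites.

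All 10 genes were expressed at a low level. Per length and library, in TPM (counts divided by exon length and scaled to the library), the order in WT livers ran from Nkg7, a membrane protein of cytotoxic granules, at 2.77 ± 0.91 (SD, n = 3), through Gzma at 1.88 ± 1.17, Cd4 at 1.78 ± 1.14, Cd2 at 0.995 ± 0.209, Klrk1 at 0.798 ± 0.196, Lck at 0.745 ± 0.221, Cd3g at 0.719 ± 0.251, and Cd3d at 0.527 ± 0.218, to Cd8a at 0.255 ± 0.053 and Cd3e at 0.151 ± 0.110. Each neighboring pair in this order lay within the larger of its SDs except Cd3d and Cd8a, and Gzma and Cd4 spread widest. In Mcl1 KO livers Gzma led at 4.35 ± 0.46 TPM, Nkg7 stood at 3.76 ± 0.66, Cd8a had reached 0.884 ± 0.256, and Cd3e remained the lowest at 0.0846 ± 0.0191. Cd3e, the CD3 chain that pairs with both other chains, had 1, 8, and 8 counts in WT, 3, 4, and 4 in Mcl1 KO, 1, 9, and 9 in Mcl1 Sting1 DKO, and 6, 4, and 12 in Sting1 KO. The groups overlapped, and at these counts no difference in Cd3e was detectable: with no filter, its log2 fold change in Mcl1 KO against WT was −0.76 (edgeR's quasi-likelihood test over all libraries, adjusted p = 0.585).

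**Figure D1:**
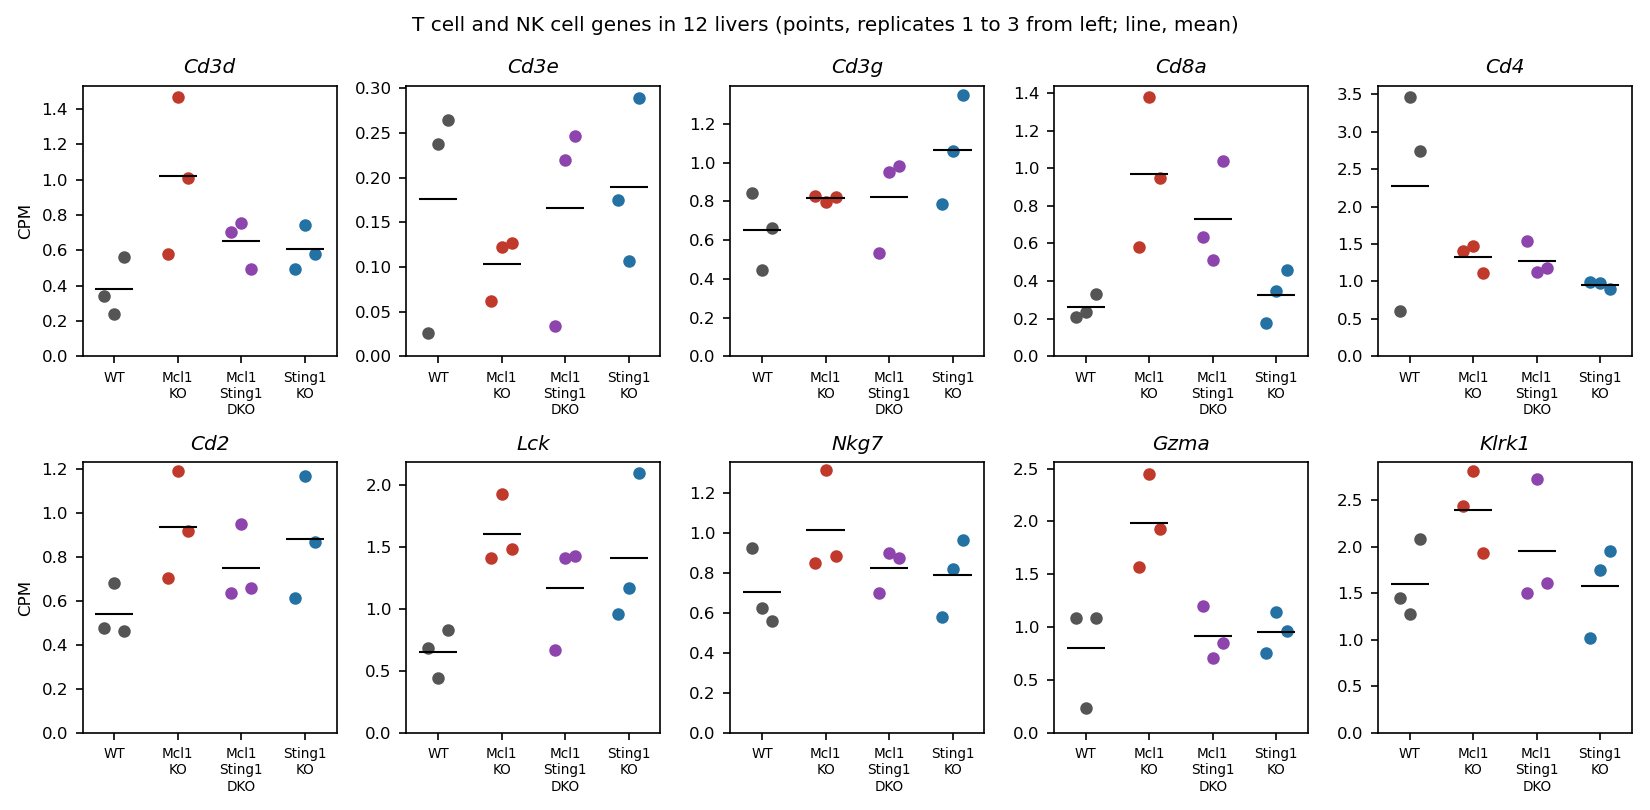
CPM (vertical axis, linear, its own scale in each panel) of the 10 genes in the 12 livers, by genotype. Points are libraries and lines are group means (n = 3). The 3 Mcl1 KO livers lie above the 3 WT livers for Cd3d, Cd8a, Cd2, Lck, and Gzma, while for Cd4 the WT livers span 0.607 to 3.47 CPM.

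In Mcl1 KO livers, with STING intact, the coreceptor gene Cd8a, the CD3 chain gene Cd3d, and the kinase gene Lck rose. Called were 3 of the 9 genes tested, all higher, by edgeR's quasi-likelihood test at an adjusted p under 0.05 over all 15070 genes tested, of which 20.2% were called in either direction and 10.8% higher. The median log2 fold change of the 9 was 0.785 (8 above 0), against −0.0049 for all genes tested. In bulk tissue more cells of a type and more RNA per cell cannot be told apart.

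Cd8a was at 0.211, 0.237, and 0.330 CPM in the WT livers (8, 8, and 10 counts) and at 0.579, 1.38, and 0.949 CPM in the Mcl1 KO livers (28, 45, and 30 counts). The groups were separate, and Cd8a was 3.69-fold higher with Mcl1 deleted (log2 fold change 1.88, SE 0.468, 95% interval 0.88 to 2.92, adjusted p = 0.0174). Cd3d was at 0.343, 0.237, and 0.561 CPM in WT and at 0.579, 1.47, and 1.01 CPM in Mcl1 KO. Its lowest Mcl1 KO liver stood just above the highest WT liver, and the fitted rise was 2.66-fold (log2 1.41, SE 0.422, adjusted p = 0.0353). Lck was at 0.686, 0.445, and 0.826 CPM in WT and at 1.41, 1.93, and 1.49 CPM in Mcl1 KO, with a clear gap between the groups and a 2.46-fold rise (log2 1.30, SE 0.394, adjusted p = 0.0376).

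These calls rested on few libraries. Without WT 2 or without Mcl1 KO 2 none of the 3 was called, with adjusted p-values of 0.0669 and 0.0766 for Cd8a, 0.127 and 0.154 for Cd3d, and 0.132 and 0.127 for Lck, and without Mcl1 KO 3 Cd8a alone was (Cd3d 0.0654, Lck 0.0591). Cd3d was also lost without WT 1 (0.0839) or Sting1 KO 3 (0.0510), and Lck without WT 1 (0.0713), WT 3 (0.0616), or Sting1 KO 2 (0.0507). Log2 fold changes stayed positive in each of these fits, at 1.54 to 2.16 for Cd8a, 1.05 to 1.78 for Cd3d, and 1.08 to 1.49 for Lck. With the share of small structured RNA, high in Mcl1 KO 2 and 3, as a covariate, the changes of Cd8a, Cd3d, and Lck were 0.94, 0.43, and 0.86, and with Y-linked reads as a covariate they were 1.89, 1.53, and 0.90, in both fits with 0 calls among the 9.

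Gzma, the granule protease granzyme A, was at 1.08, 0.237, and 1.09 CPM in WT and at 1.57, 2.45, and 1.93 CPM in Mcl1 KO. The groups did not overlap, and the log2 fold change was 1.30 (SE 0.450, adjusted p = 0.0599), past the threshold only without Mcl1 KO 1 (0.0466) and in DESeq2 (0.0248), which called 4 of the 9. Cd2, an adhesion receptor of T and NK cells that binds CD48 in mice, was at 0.475, 0.682, and 0.462 CPM in WT and at 0.703, 1.19, and 0.917 CPM in Mcl1 KO, again without overlap (log2 0.79, SE 0.347, adjusted p = 0.122). With Cd8a, Cd3d, and Lck, 5 of the 9 genes had groups that did not overlap, all higher in Mcl1 KO, against 16.2% of all genes tested that were higher and 17.1% that were lower without overlap.

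The remaining genes overlapped between WT and Mcl1 KO. Klrk1, which encodes NKG2D, was at 1.45, 1.28, and 2.08 CPM in WT and at 2.44, 2.82, and 1.93 CPM in Mcl1 KO (log2 0.58, SE 0.327, adjusted p = 0.216). Nkg7 was at 0.923, 0.623, and 0.561 CPM in WT and at 0.848, 1.32, and 0.886 CPM in Mcl1 KO (log2 0.52, SE 0.317, adjusted p = 0.252). Cd3g, whose promoter faces that of Cd3d, was at 0.844, 0.445, and 0.660 CPM in WT and at 0.828, 0.796, and 0.822 CPM in Mcl1 KO (log2 0.32, SE 0.343, adjusted p = 0.520). The 95% intervals of these 3 genes all spanned 0, with an upper end of 1.30 for Klrk1, 1.21 for Nkg7, and 1.07 for Cd3g, so a rise of 2-fold was within each.

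Cd4 took a course of its own. It was at 0.607, 3.47, and 2.74 CPM in WT, and at 1.41, 1.47, and 1.11 CPM in Mcl1 KO. WT 2 and WT 3, which hold Y-linked reads, lay above all other libraries, and WT 1 below all of them. The log2 fold change was −0.77 (SE 0.462, adjusted p = 0.248), and without the 3 libraries with Y-linked reads, which leaves 1 WT liver, it was 1.12 (adjusted p = 0.224), an alternative chosen after the data were seen. Without WT 1 Cd4 passed the threshold as lower in Mcl1 KO (adjusted p = 0.0110). In Mcl1 Sting1 DKO, too, the library with Y-linked reads had the highest Cd4 level, 1.54 CPM against 1.12 and 1.18, and the part of these reads in the differences was not tested beyond these fits.

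**Figure D2:**
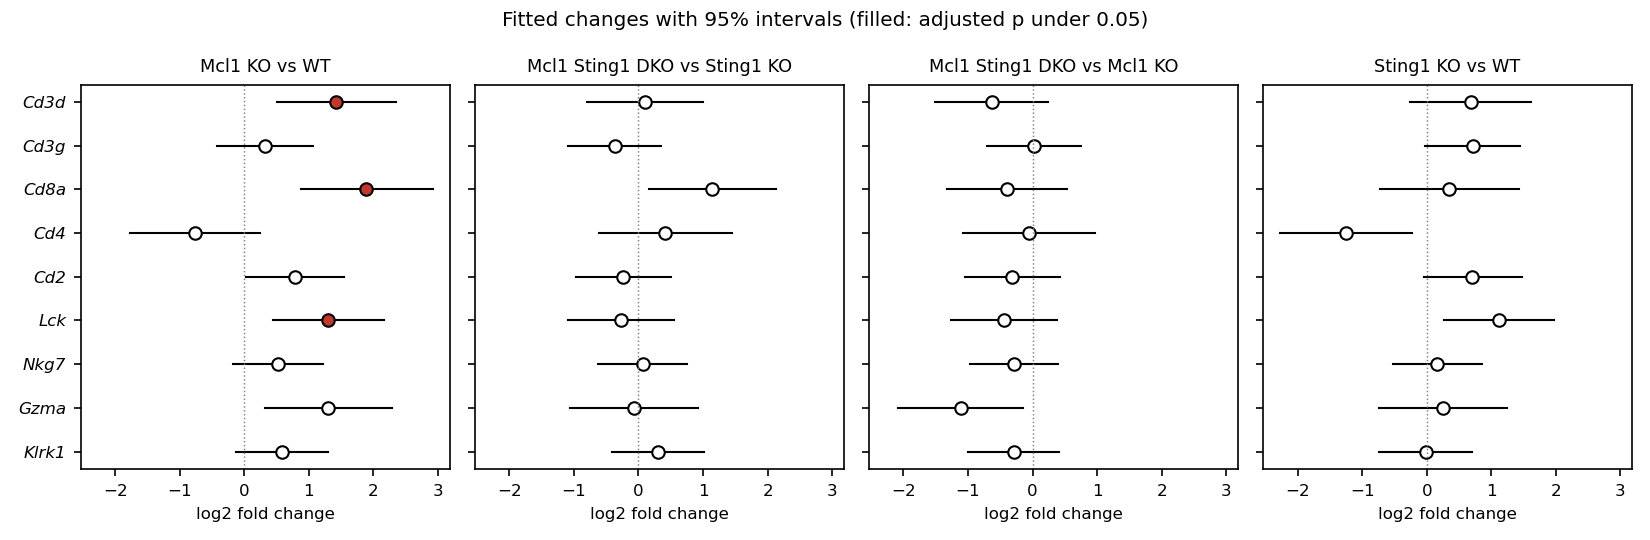
Log2 fold changes (horizontal axis) of the 9 tested genes in 4 comparisons. Points are fitted values, bars are 95% intervals from edgeR's quasi-likelihood fit of 12 libraries, and filled points have an adjusted p under 0.05. Cd3d, Cd8a, and Lck are filled in Mcl1 KO against WT and no gene is filled elsewhere.

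On the Sting1−/− background, Mcl1 deletion was compared between Mcl1 Sting1 DKO and Sting1 KO livers, and none of the 9 genes was called. Over all genes 0.803% were called. DESeq2 called 0 of the 9 as well. At an unadjusted p under 0.05 were 1709 of all genes tested and 1 of the 9, Cd8a. Cd8a was at 0.635, 0.512, and 1.04 CPM in Mcl1 Sting1 DKO and at 0.175, 0.345, and 0.458 CPM in Sting1 KO, with every DKO liver above every Sting1 KO liver (log2 1.14, SE 0.454, adjusted p = 0.347). Cd4 was the other gene without overlap, at 1.54, 1.12, and 1.18 CPM against 0.989, 0.982, and 0.893 CPM (log2 0.42, SE 0.475, adjusted p = 0.830). These 2 of 9 stood against 11.5% of all genes tested that were higher without overlap and 10.8% that were lower. The other 7 had log2 fold changes from −0.37 (Cd3g) to 0.31 (Klrk1), with a median of 0.064 for the 9.

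Lck, called on the intact background, was at 0.668, 1.41, and 1.42 CPM in Mcl1 Sting1 DKO and at 0.960, 1.17, and 2.10 CPM in Sting1 KO, with overlap and a log2 fold change of −0.27 (95% interval −1.09 to 0.56). Cd3d was at 0.702, 0.755, and 0.493 CPM in Mcl1 Sting1 DKO and at 0.495, 0.743, and 0.579 CPM in Sting1 KO, and its log2 fold change was 0.10 (−0.79 to 0.99). Whether the effect of Mcl1 deletion differed between the backgrounds was tested by the interaction term of the same fit, which shares all 12 libraries with both comparisons. None of the 9 genes was called, as over all genes tested (0%), and DESeq2 called none of the 9. Without Mcl1 KO 1 the interaction was called for 1574 genes, and without WT 1 for 88, with 0 of the 9 called without Mcl1 KO 1. At an unadjusted p under 0.05 were 2165 of all genes tested and 2 of the 9, Lck (log2 difference of effects −1.56, SE 0.545, adjusted p = 0.292) and Cd3d (−1.31, SE 0.588, adjusted p = 0.340). Gzma followed at −1.36 (SE 0.638, adjusted p = 0.352) and Cd2 at −1.02 (SE 0.485, adjusted p = 0.356). The difference for Cd8a was −0.75 with a 95% interval from −2.17 to 0.67, and for 8 of the 9 genes the value was below 0.

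Averaged over both Sting1 backgrounds, Cd8a was called, higher with Mcl1 deleted, and no other of the 9 genes was called. The log2 change of Cd8a was 1.51 (SE 0.326, 95% interval 0.81 to 2.23, adjusted p = 0.00921), where 16.7% of all genes were called and 9.9% were called higher. All 6 livers with Mcl1 deleted, at 0.512 to 1.38 CPM, lay above all 6 with Mcl1 intact, at 0.175 to 0.458 CPM. How many of all genes tested separated in this way was not counted. Cd3d had a log2 change of 0.76 (adjusted p = 0.0969, and 0.0313 without Mcl1 KO 1), Gzma 0.62 (0.203), Lck 0.52 (0.211), and Klrk1 0.45 (0.204), while Cd3g stood at −0.022 and Cd4 at −0.18. Cd8a was called in each of the 12 fits that left out 1 library, and was not called without the 3 libraries with Y-linked reads.

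Removing STING from Mcl1-deleted livers was compared between Mcl1 Sting1 DKO and Mcl1 KO. None of the 9 genes was called, as over all genes (0% by edgeR, with 3098 genes at an unadjusted p under 0.05), and DESeq2 called 0 of the 9 too, with 681 calls over all genes. Mcl1 KO 1 bore on this: without it 3108 genes were called by edgeR, and still 0 of the 9. Gzma was at 1.20, 0.707, and 0.848 CPM in Mcl1 Sting1 DKO, below each of the 1.57, 2.45, and 1.93 CPM of Mcl1 KO and close to the 0.757, 1.14, and 0.965 CPM of Sting1 KO. Its log2 fold change was −1.11 (SE 0.446, unadjusted p = 0.0280, adjusted p = 0.196). It was the 1 gene of 9 without overlap, against 9.28% of all genes tested that were lower and 8.97% that were higher without overlap. Cd3d had a log2 fold change of −0.63 (adjusted p = 0.380), Lck −0.45, Cd8a −0.40 (95% interval −1.32 to 0.53), Cd2 −0.31, Klrk1 −0.29, Nkg7 −0.29, Cd4 −0.061, and Cd3g 0.023. The median of the 9 was −0.31, with 8 below 0, against −0.0021 for all genes tested.

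Klrk1 and Nkg7 varied within groups as much as between them. Klrk1 was at 1.503, 2.73, and 1.61 CPM in Mcl1 Sting1 DKO and at 1.02, 1.75, and 1.95 CPM in Sting1 KO. Nkg7 was at 0.702, 0.902, and 0.876 CPM and at 0.582, 0.823, and 0.965 CPM. Cd2 was at 0.635, 0.950, and 0.657 CPM and at 0.611, 1.17, and 0.869 CPM, and Cd3g at 0.535, 0.950, and 0.985 CPM and at 0.786, 1.06, and 1.35 CPM, in the same order. Mcl1 Sting1 DKO 1 was the lowest of its group for Lck, Nkg7, Cd2, Klrk1, and Cd3g, and Sting1 KO 1 was the lowest of its group for all of the 9 genes but Cd4.

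With Mcl1 intact, loss of STING was compared between Sting1 KO and WT livers. None of the 9 genes was called by edgeR or by DESeq2, as over all genes with edgeR (0%, with 821 at an unadjusted p under 0.05). Lck was above WT in all 3 Sting1 KO livers (log2 1.12, SE 0.394, unadjusted p = 0.0149, adjusted p = 0.813). It was the 1 gene of 9 without overlap, against 7.06% of all genes that were higher and 5.46% that were lower without overlap. Cd3g (0.71), Cd2 (0.71), and Cd3d (0.68) had positive log2 fold changes that did not pass, and Cd8a (0.35), Gzma (0.25), and Nkg7 (0.17) smaller ones. Klrk1 was at −0.018, with a 95% interval from −0.74 to 0.70. Cd4 was at −1.24 (SE 0.470, unadjusted p = 0.0213, adjusted p = 0.820), at −1.70 with an adjusted p of 0.0449 without WT 1, and at 0.65 without the 3 libraries with Y-linked reads. The comparisons of Mcl1 KO and of Sting1 KO with WT share the WT livers, so their values for these genes are not independent of each other.

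The balance of coreceptors was described by the ratio of Cd8a to Cd4 counts within a library, a measure chosen after the values were seen. The ratio was 0.348, 0.0684, and 0.120 in WT, 0.412, 0.938, and 0.857 in Mcl1 KO, 0.413, 0.457, and 0.884 in Mcl1 Sting1 DKO, and 0.176, 0.351, and 0.514 in Sting1 KO. WT and Mcl1 KO did not overlap, DKO and Sting1 KO did, and the 2 low WT values came from the libraries with high Cd4. The ratio of Cd3d to Cd3g was 0.406, 0.533, and 0.850 in WT, 0.700, 1.85, and 1.23 in Mcl1 KO, 1.31, 0.795, and 0.500 in Mcl1 Sting1 DKO, and 0.630, 0.700, and 0.429 in Sting1 KO, with overlap in each pair of groups compared. Both ratios, the second also chosen after the values were seen, were compared on the log2 scale by 6 two-sided exact permutation tests, and none passed after adjustment over the 6. The tests over both backgrounds permuted livers freely across Sting1 genotypes (924 arrangements), not within each background. For Cd8a to Cd4 the exact p was 0.1 in Mcl1 KO against WT (adjusted p = 0.2), the smallest that 3 against 3 livers allow, 0.3 in Mcl1 Sting1 DKO against Sting1 KO (adjusted p = 0.36), and 0.013 over both backgrounds (adjusted p = 0.0779). For Cd3d to Cd3g the exact p-values were 0.2, 0.4, and 0.0476 in the same order (adjusted p = 0.3, 0.4, and 0.143). Since the ratios were picked with these values known, the p-values are no independent support.

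**Figure D3:**
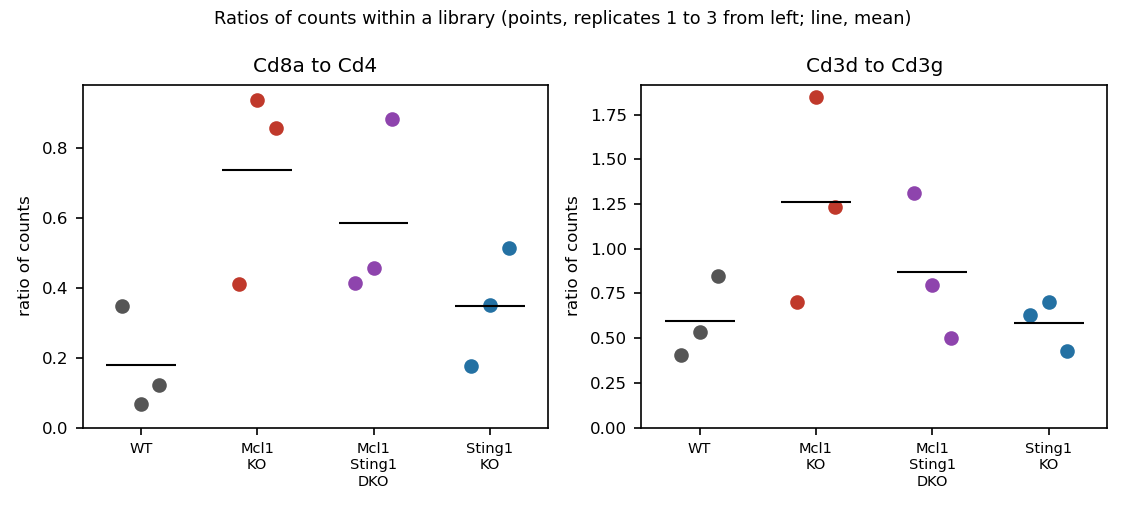
Ratio of counts within a library (vertical axis, linear) for Cd8a to Cd4 and for Cd3d to Cd3g, by genotype. Points are libraries and lines are group means. The 3 Mcl1 KO livers lie above the 3 WT livers for Cd8a to Cd4, at 0.412 to 0.938 against 0.0684 to 0.348, and the groups overlap for Cd3d to Cd3g.

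Across the 12 libraries, the genes varied together in part. Pearson's r of log2(CPM + 1) over the 45 pairs of the 10 genes ran from −0.72 (Cd3g and Cd4) to 0.82 (Cd3d and Gzma, Spearman's rho 0.66), with 0.75 for Cd3d and Cd8a, 0.77 for Cd3g and Lck, and 0.20 for Cd3d and Cd3g. The points share genotype and library, and the low counts carry much sampling noise. Of all genes tested, those most like Cd3g included Maoa (r = 0.921), Ilvbl (0.902), Khdrbs3 (0.880), and Rida (0.877), none of them in the lists used here. The 5 most like Nkg7 were D030056L22Rik (0.911), Cklf (0.905), Atp1b3 (0.893), Akr1b7 (0.891), and Zfp940 (0.885), none of them in the lists. Both sets rest on n = 12 and are descriptions.

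The 10 genes were set beside 85 other T and NK cell genes in 4 lists, of which 59 were tested. In Mcl1 KO against WT, 14 of the 59 were called, 13 of them higher. Over all genes tested, 20.2% were called and 10.8% were called higher. The median log2 fold change of the 59 was 0.78 (49 above 0). These 14 calls became 3 without WT 2 or without Mcl1 KO 2, 8 without WT 3, 3 with Y-linked reads as a covariate, and 0 with the small structured RNA share as a covariate or without the 3 libraries with Y-linked reads. Values in parentheses are log2 fold changes, with adjusted p-values of the same edgeR fit. Of 21 tested genes of the T cell receptor complex and its signaling, 6 rose and none fell (median 0.79): Cd247, the CD3 zeta chain (2.29, SE 0.484, adjusted p = 0.00878), Themis (1.87, SE 0.533, 0.0300), Zap70, the kinase recruited to phosphorylated CD3 chains (1.62, SE 0.235, 0.00188), Thy1 (1.17), Trbc2 (1.10), and Lcp2 (0.74). Zap70 had more reads than any of the 10 genes described first, at 12.4, 9.70, and 9.87 CPM in WT, 20.8, 39.1, and 38.8 CPM in Mcl1 KO, 15.1, 18.3, and 13.3 CPM in Mcl1 Sting1 DKO, and 14.1, 18.2, and 14.9 CPM in Sting1 KO. Each Mcl1 KO liver exceeded every other liver for Zap70. In the WT livers Lck stood at 0.445 to 0.826 CPM, far below Zap70. Which liver cells gave the Zap70 reads was not tested. Trac, the constant chain of the receptor (log2 0.79, adjusted p = 0.122), and Cd8b1, the partner of Cd8a in conventional CD8 T cells (1.23, SE 0.586, adjusted p = 0.148), did not pass, and were named after their values were seen.

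In Mcl1 KO against WT, 10.8% of all genes tested were called higher. Of 14 tested NK cell receptor and transcription factor genes, 4 rose and none fell, with a median of 1.13 and all 14 above 0. They were the receptor genes Klrd1 (1.86, SE 0.578, adjusted p = 0.0400), Cd244a (1.80, SE 0.427, 0.0143), and Klrb1c (1.72, SE 0.396, 0.0131), and Hcst (1.22, 0.0481), the signaling adaptor of NKG2D. Klrd1 was at 3 to 10 counts in WT and at 16 to 38 in Mcl1 KO. Of 10 tested cytotoxic granule and effector genes, 1 rose, Srgn, the granule proteoglycan serglycin that many leukocytes express (0.93, SE 0.224, adjusted p = 0.0160), with a median of 0.78. Prf1, which encodes perforin and was named after its values were seen, had 0 to 14 counts in WT and 20 to 39 in Mcl1 KO (1.52, SE 0.710, adjusted p = 0.139). Of 14 tested genes of T cell factors, subsets, and checkpoints, Havcr2 (1.46, SE 0.407, adjusted p = 0.0277) and Tcf7 (0.99, SE 0.241, 0.0168) rose. Foxp3, which defines regulatory T cells, had 0 to 1 counts in WT and 1 to 8 in Mcl1 KO, and was not tested.

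Among 15 tested genes for ligands and cytokines that act on these cells, 6 rose, against 10.8% of all genes tested called higher. Raet1d, a ligand of NKG2D, was at 8.02, 4.57, and 3.80 CPM in WT and at 21.9, 31.7, and 21.4 CPM in Mcl1 KO (2.19, SE 0.260, adjusted p = 0.00111). Raet1e, of the same family, rose by 1.43 (SE 0.303, adjusted p = 0.00930), and Cd48, the ligand of CD2 and of CD244, by 1.48 (SE 0.278, 0.00580). The costimulatory ligands Cd80 (1.53, 0.0345) and Cd86 (1.16, 0.00555) and the DNAM-1 ligand Pvr (0.62, 0.0312) rose as well. Averaged over both backgrounds, 16.7% of all genes tested were called and 9.9% were called higher. Of the 15 ligand and cytokine genes, 5 rose there, among them Raet1d (1.57, SE 0.180, adjusted p = 0.000401), Cd48 (1.01), and Raet1e (1.01). Of the 59 other T and NK cell genes, 11 were called there and 10 of these rose. Cd247 (1.34), Themis (1.24), and Zap70 (0.80) were among those that rose, with Cd244a (1.03), Klrb1c (0.87), Havcr2 (1.45), Tcf7 (0.54), Srgn (0.57), and Gata3 (2.16, SE 0.599, adjusted p = 0.0274), a factor of T helper and innate lymphoid cells.

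None of the 59 was called in Mcl1 Sting1 DKO against Mcl1 KO or in Sting1 KO against WT. Nor was any called in Mcl1 Sting1 DKO against Sting1 KO or in the interaction. Over all 15070 genes tested, 0, 0, 121, and 0 were called, in the same order. At an unadjusted p under 0.05 were 8, 6, 3, and 12 of the 59, against 3098, 821, 1709, and 2165 of all genes. DESeq2 called 2, 0, 0, and 1 of the 59, against 681, 51, 461, and 170 of all genes. Without Mcl1 KO 1, edgeR called 5, 0, 0, and 3 of the 59, against 3108, 0, 141, and 1574 of 15357 genes tested. The median log2 values of the 59 were −0.23, 0.36, 0.049, and −0.71. Zap70 was lower in Mcl1 Sting1 DKO than in Mcl1 KO without overlap (−1.08, SE 0.231, adjusted p = 0.131), and Icos, a costimulatory receptor, had a value of 1.49 (SE 0.403, adjusted p = 0.133) there. Xcl1, a chemokine of NK and CD8 T cells, was at −1.58 (SE 0.530, adjusted p = 0.156) and Klrd1 at −1.32 (SE 0.551, 0.208). In Sting1 KO against WT, 19 of the 21 T cell receptor genes had positive values (median 0.56), and the lowest p-values were those of Trac (1.05, adjusted p = 0.784) and Cd247 (1.35, adjusted p = 0.813).

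**Figure D4:**
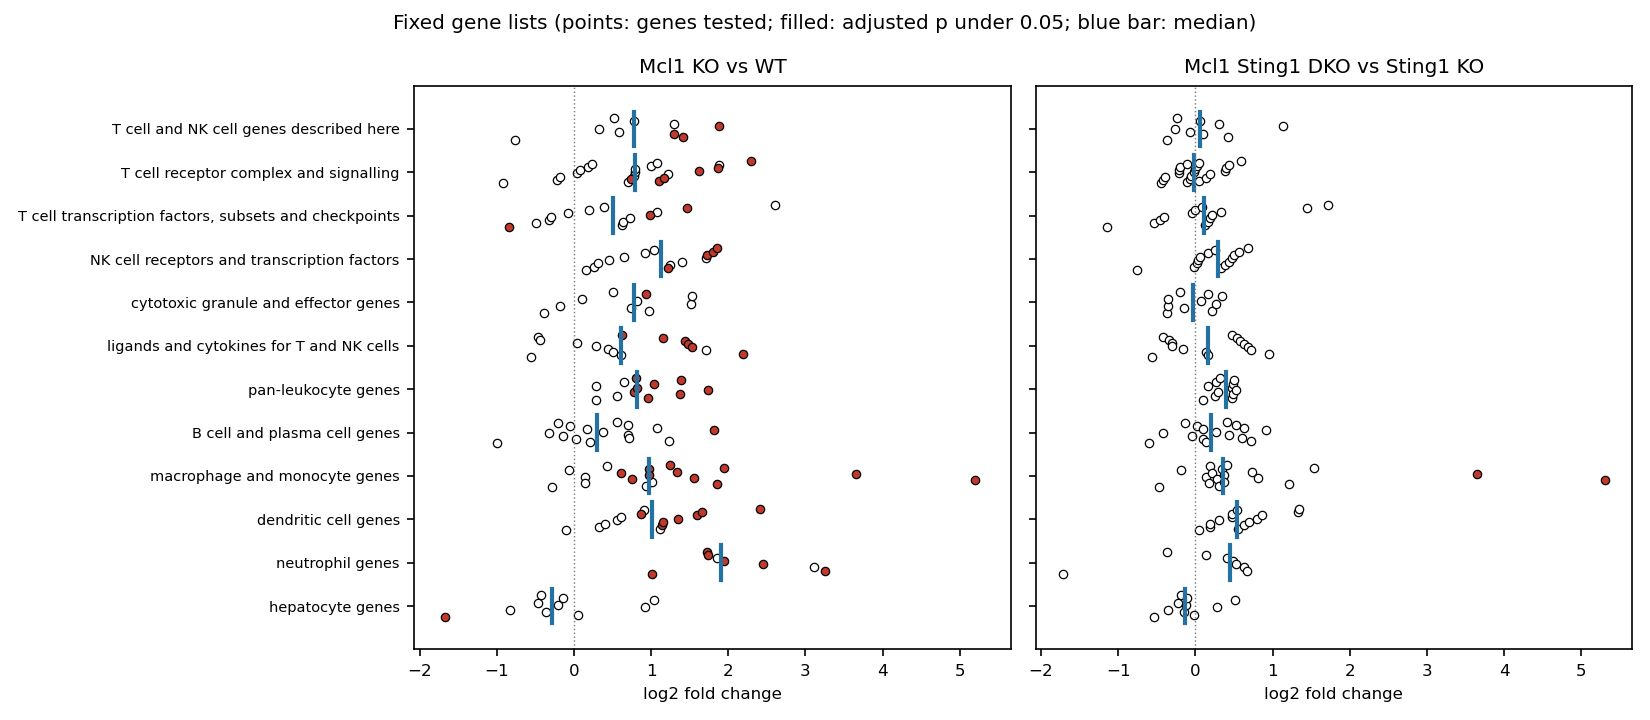
Log2 fold change (horizontal axis) of each tested gene of the 10 genes described here and of 11 lists, in Mcl1 KO against WT (left) and Mcl1 Sting1 DKO against Sting1 KO (right). Filled points have an adjusted p under 0.05 and bars are medians. Filled points occur in each list on the left, and on the right in the macrophage list only (Gpnmb and Trem2).

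Genes of other leukocytes moved in the same comparison, in which 10.8% of all genes tested were called higher. In Mcl1 KO against WT, 8 of 12 pan-leukocyte genes rose (median 0.81), led by Coro1a (1.74, adjusted p = 0.00246), with Ptprc at 0.80 (adjusted p = 0.0179). Macrophage and monocyte genes rose in 11 of 18 (median 0.97), dendritic cell genes in 7 of 14 (median 1.02), neutrophil genes in 6 of 8 tested (median 1.90), and B cell and plasma cell genes in 1 of 16 (median 0.29, Iglc2). The summed level was 205 to 284 CPM in Mcl1 KO against 113 to 153 CPM in WT for the pan-leukocyte genes, 1112 to 1412 against 602 to 934 CPM for the macrophage genes, 468 to 614 against 231 to 329 CPM for the dendritic cell genes, 10.97 to 24.72 against 3.17 to 5.25 CPM for the neutrophil genes, and 29.9 to 56.1 against 20.1 to 76.5 CPM for the B cell genes. That of the 10 T cell and NK cell genes was 10.4 to 14.9 CPM in Mcl1 KO, 6.65 to 9.58 CPM in WT, 8.15 to 10.3 CPM in Mcl1 Sting1 DKO, and 6.55 to 10.4 CPM in Sting1 KO. For the T cell receptor list the sum was 56.8 to 76.9 CPM in Mcl1 KO against 28.5 to 37.7 CPM in WT. For the NK cell receptor list it was 11.6 to 18.4 against 6.26 to 8.82 CPM. Lower sums in Mcl1 KO were those of T cell factors, subsets, and checkpoints (97.3 to 129 against 145 to 172 CPM). Cytotoxic granule and effector genes were also lower in sum, at 560 to 661 against 685 to 870 CPM. Cd8a and Cd4 are also carried by subsets of dendritic cells, and the part of those cells in the values of Cd8a and Cd4 was not tested. Which cells gave the reads of the other T and NK cell genes in the lists was not tested either.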

How the data were processed

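Total RNA of 12 mouse livers was sequenced, and each library was assigned to its genotype by its label. As unit, the authors deposited read counts per Ensembl gene that had not been normalized. The submitters' processing notes name STAR, featureCounts, and GRCm39, and the annotation release, the use of strand, and the treatment of reads on several genes were not given in the sources used here. Labels and paper differ on the RNA extraction kit. Libraries of one genotype were compared for duplicates (chi-square per degree of freedom, 40.1 to 290.3), and none was found. Whether litters or days were shared was not stated, so p-values measure the spread between these libraries.

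Counts were fitted with edgeR 4.0.16 (TMM, filterByExpr by genotype, glmQLFit, glmQLFTest) in R 4.3.3, with genotype as the only term over all 12 libraries. Adjustment was by Benjamini-Hochberg over 15070 genes with a threshold of 0.05, and SEs came from the F statistic. DESeq2 1.42.0 was an alternative. TPM used exon lengths of GENCODE vM39, and genes without a length held at most 0.101% of a library. The fit was tested on simulated data. Figures were drawn with matplotlib 3.10.9 under Python 3.11.15.

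The members and the lists were chosen with earlier results of these data known. All 10 members are named, and from each list up to 3 called genes with the largest rise and 3 with the largest fall per comparison, or else up to 2 with the lowest p. Some genes that these rules select are not reported here. Other genes that complete a count were named with their values known. The 5 genes most like Cd3g (in place of the untested Cd3e) and Nkg7 are named by r of log2(CPM + 1). Alternatives were other size factors, no filter, DESeq2, a prior count of 2, a replicate block, covariates, the compared libraries alone, and leaving out each library. Leaving out the libraries with Y-linked reads was added after the data were seen.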

Additional observations from a re-analysis of the deposited data

How the results depend on the processing

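In Mcl1 KO against WT, the 3 calls among the 9 genes became 0 with Y-linked reads or the small structured RNA share as a covariate, 1 with only the libraries compared, and 0 without the 3 libraries with Y-linked reads, an alternative chosen after the data were seen. Leaving out 1 library gave 0 to 4. Of the other T and NK cell genes, 14 calls became 3, 0, 5, and 0 in the same fits and 3 to 17 when 1 library was left out (3 without WT 2 or Mcl1 KO 2, 8 without WT 3). Averaged over both backgrounds, the 1 member called became 0 without the libraries with Y-linked reads and 1 to 2 when 1 library was left out. The 11 other genes called became 3 with the small structured RNA share and 1 without the libraries with Y-linked reads, and 4 (without Mcl1 KO 2) to 12 when 1 library was left out. Replicate numbers did not pair the samples (same-number pairs, r from −0.60 to 0.34, over 0.1 in 3 of 18). With the replicate block, Cd3d lost its call in Mcl1 KO against WT (adjusted p = 0.0558) and the 11 became 7. Where no other T or NK cell gene was called, DESeq2 called 2 in Mcl1 Sting1 DKO against Mcl1 KO and 1 in the interaction. Leaving out 1 library gave 0 to 5 and 0 to 3, both highest without Mcl1 KO 1. Over all genes, DESeq2 called 681 and 170 in these comparisons, and edgeR 3108 and 1574 without Mcl1 KO 1. Among members in Sting1 KO against WT, leaving out 1 library gave 0 to 1. Over all genes, the 3050 calls in Mcl1 KO against WT became 1531 and 407 with the covariates, 1178 with only the libraries compared, 4 without the libraries with Y-linked reads, and 1233 to 5232 when 1 library was left out. The 121 calls in Mcl1 Sting1 DKO against Sting1 KO became 461 in DESeq2, 45 with Y-linked reads as a covariate, 17 with only the libraries compared, 0 without the libraries with Y-linked reads, and 1 to 249 when 1 library was left out. The 0 calls in Sting1 KO against WT became 51 and those in the interaction 170 in DESeq2. Over both backgrounds, 2522 became 1599 with the small structured RNA share, 363 without the libraries with Y-linked reads, and 1711 to 4267 when 1 library was left out. The causes were not tested.

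Log2 values that changed sign were all of comparisons in which the gene was not called. With Y-linked reads as a covariate these were Cd3g (−0.12) and Cd4 (0.37) in Mcl1 KO against WT, Nkg7 in Sting1 KO against WT (−0.13), and Cd4 in Mcl1 Sting1 DKO against Sting1 KO (−0.0038), in the interaction (−0.38), and over both backgrounds (0.18). Without the libraries with Y-linked reads they were Cd3g (−0.059) and Cd4 (1.12) in Mcl1 KO against WT, Cd4 (0.65), Nkg7 (−0.22), Gzma (−0.17), and Klrk1 (0.13) in Sting1 KO against WT, Lck in Mcl1 Sting1 DKO against Sting1 KO (0.0023), Cd4 (−0.85) and Nkg7 (0.039) in the interaction, and Cd4 over both backgrounds (0.69). With the small structured RNA share they were Cd8a in Mcl1 Sting1 DKO against Mcl1 KO (0.12), Cd8a (−0.30), Nkg7 (−0.042), and Gzma (−0.096) in Sting1 KO against WT, Gzma in Mcl1 Sting1 DKO against Sting1 KO (0.036), and Cd8a (0.42) and Klrk1 (0.023) in the interaction. Leaving out 1 library gave ranges across 0 of −0.12 to 0.25 for Cd3g and −0.21 to 0.031 for Cd4 in Mcl1 Sting1 DKO against Mcl1 KO. In Sting1 KO against WT they were −0.0035 to 0.42 for Nkg7, −0.18 to 0.54 for Gzma, and −0.20 to 0.21 for Klrk1. In Mcl1 Sting1 DKO against Sting1 KO they were −0.028 to 0.29 for Cd3d, −0.45 to 0.014 for Cd2, −0.48 to 0.14 for Lck, −0.11 to 0.23 for Nkg7, −0.30 to 0.097 for Gzma, and −0.017 to 0.49 for Klrk1, and over both backgrounds −0.13 to 0.096 for Cd3g and −0.41 to 0.046 for Cd4.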
